A study of Rattus norvegicus with 24 samples.

Results

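The strain difference between spontaneously hypertensive rats (SHR) and Wistar-Kyoto rats (WKY) was set against itself in 2 organs, the adrenal gland and the left ventricle of the heart. The members are the 16 libraries of these organs among 24 libraries in the series, and within them the 11395 of 22864 deposited genes whose FPKM was 1 or more in 4 or more of the 8 libraries, in each organ. FPKM counts sequenced fragments per kilobase of transcript, scaled to the size of the library. The 4 groups, each of 4 libraries from rats aged 24 weeks, are SHR adrenal gland, WKY adrenal gland, SHR left ventricle and WKY left ventricle; the labels name no treatment, transgene or sex. SHR is an inbred strain with inherited high blood pressure and an enlarged left ventricle, and WKY is the related strain used as its normotensive control, and effects of genome and of blood pressure cannot be told apart. The series asks how the transcriptomes of the organs differ in this model of hypertensive hypertrophy. The quantity described here is the tissue difference: the SHR minus WKY difference in the adrenal gland minus the SHR minus WKY difference in the left ventricle, on the log2(FPKM + 1) scale, where the strain differences of weakly expressed genes are understated. A positive value means that the strain difference was more positive in the adrenal gland, and a negative value that it was more negative there.

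The adrenal gland is built of a cortex, which makes corticosteroids and aldosterone from cholesterol under the control of corticotropin and angiotensin, and a medulla, which makes and releases adrenaline under the control of the splanchnic nerve. The left ventricle is mostly cardiomyocyte by mass, which burns fatty acids and enlarges under pressure load with a partial return to a fetal gene programme. Both organs also hold endothelial cells, fibroblasts, smooth muscle and resident macrophages, and both receive catecholamines and glucocorticoids from the gland itself.

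The FPKM values of a library summed to between 493051 and 517693 in the adrenal gland and between 533805 and 549167 in the ventricle, and 12104 to 12728 and 12247 to 12470 genes reached an FPKM of 1; the number of reads is not given in the sources used here, so the depth is unknown and no interval based on counts is given. Correlations of log2(FPKM + 1) between libraries of one strain lay at 0.980 to 0.991 (adrenal gland) and 0.984 to 0.992 (ventricle). Between strains they were 0.944 to 0.960 and 0.969 to 0.978. At most 0.483% of genes had equal values in a pair of libraries, so no library repeated another. The organ labels held in the markers: 11 adrenal cortex markers summed to 36930 to 38430 FPKM in SHR adrenal glands and 35940 to 37520 FPKM in WKY adrenal glands, and to 58.9 to 71.7 FPKM in all ventricles. The 13 cardiomyocyte markers summed to 50420 to 52840 FPKM in SHR ventricles and 53010 to 55230 FPKM in WKY ventricles. The labels do not say that libraries come from separate rats, so the p-values measure the spread between libraries, which may be technical. Some libraries stood apart in ways that touch results below. SHR replicate 3 of the adrenal gland was low for immediate early genes, SHR replicate 2 was high for interferon-stimulated genes in both organs, and SHR replicate 3 of the ventricle was high for heat shock genes.

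The strain difference depended on the organ for many genes. The tissue difference passed the threshold (limma, Benjamini-Hochberg adjusted p below 0.05) in 3340 of 11395 genes, or 29.3%; 1582 (13.9%) were higher and 1758 (15.4%) lower in the adrenal gland. Within the same fit, SHR and WKY adrenal glands differed in 4853 genes (42.6%; 17.8% higher and 24.8% lower in SHR), and SHR and WKY ventricles in 2498 genes (21.9%; 9.31% higher and 12.6% lower in SHR). Of the 3340 genes, 1925 (57.6%) carried a strain call in the adrenal gland alone, 619 (18.5%) in the ventricle alone, 447 (13.4%) in both with opposite signs, 153 (4.58%) in both with the same sign, and 196 (5.87%) in neither. The absolute strain difference was the larger one in the adrenal gland for 2354 of them (70.5%). Its SD over all 11395 genes was 0.478 in the adrenal gland and 0.331 in the ventricle, while the median spread between libraries of a group was nearly equal, an SD of 0.127 in the adrenal gland and 0.123 in the ventricle.

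**Figure D1:**
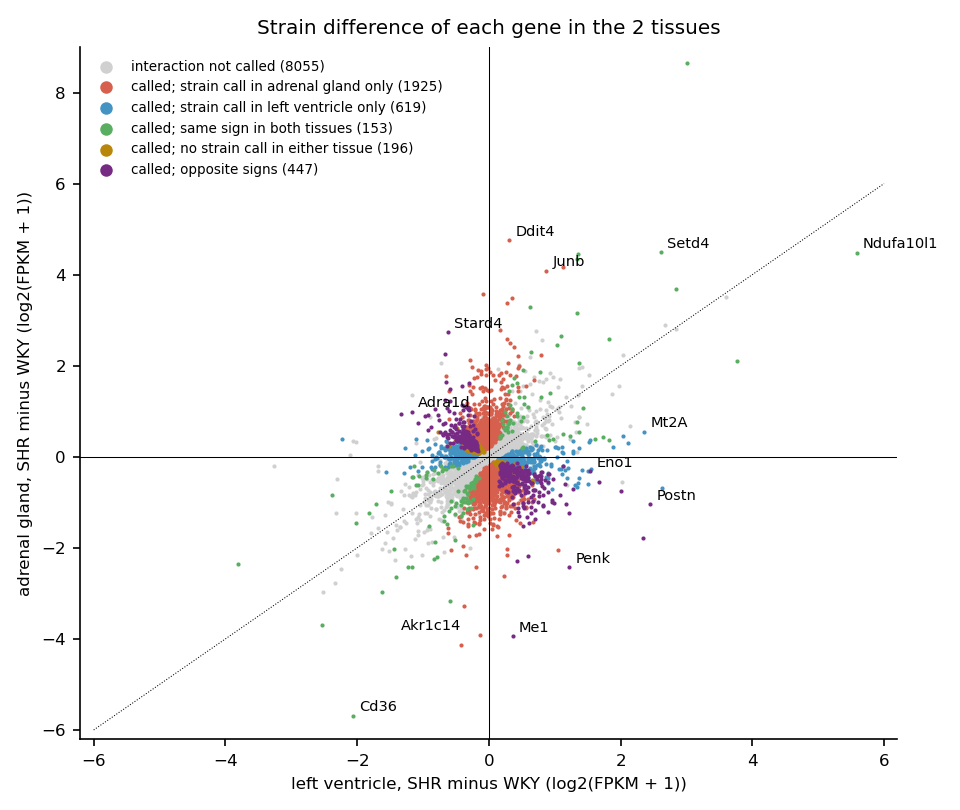
Strain difference (SHR minus WKY, log2(FPKM + 1)) of the 11395 genes in the adrenal gland (vertical axis) and in the left ventricle (horizontal axis). Colours mark the 3340 genes whose tissue difference passed by the strain calls they carried; the 447 purple genes lie in the quadrants of opposite sign, and the dotted line marks equal differences.

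Genes called in both organs numbered 1315, which is 27.1% of the adrenal calls and 52.6% of the ventricular calls. They had the same sign in 868 and opposite signs in 447 genes, or 3.92% of the genes tested; 237 (2.08%) were lower in SHR adrenal glands and higher in SHR ventricles, and 210 (1.84%) the reverse. Over the 11395 genes, the 2 strain differences had a Pearson correlation of 0.306 and a Spearman correlation of 0.173, a description over genes whose values come from the same 16 libraries. The 4 SHR and 4 WKY libraries did not overlap in 4382 genes (38.5%) in the adrenal gland, in 2741 genes (24.1%) in the ventricle, and in 428 genes (3.76%) in both organs with the order of the strains turned round. In the authors' deposited table, the adrenal log2 ratio minus the heart log2 ratio had the sign of the tissue difference in 3336 of the 3340 genes. Of the 447 genes with opposite signs, 294 had deposited q-values below 0.05 with opposite signs in the authors' deposited table.

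Tissue differences were called among genes of like and of unlike level in the organs, where the level is the mean FPKM + 1. Among 10174 genes whose levels lay within 4 times of each other on this scale, 2844 (28%) passed. The share was 41.0% of the 566 genes with an adrenal level over 4 times the ventricular level. It was 40.3% of the 655 genes with a ventricular level over 4 times the adrenal level. Whether the level of a gene shaped its tissue difference was not tested. Of the genes tested, 140 reached the minimum FPKM in all 4 libraries of one strain and none of the other in an organ; these entered only through the strain in which they were high, and 71 of them passed.

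Immediate early genes, which are transcribed within minutes of hormonal, neural or mechanical stimulation and encode short-lived transcription factors and feedback inhibitors, held several of the largest positive tissue differences. Of 31 tested members of this list, 13 had a higher tissue difference and 3 a lower one, against 13.9% and 15.4% of all genes. In SHR adrenal glands 21 rose and 1 fell, against 17.8% and 24.8% of all genes. In SHR ventricles 11 rose and none fell, against 9.31% and 12.6%. The median tissue difference of the list was 0.78, against -0.001 over all genes tested, with median strain differences of 1.53 (adrenal gland) and 0.62 (ventricle).

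Junb encodes an AP-1 transcription factor. It had 612, 703, 207 and 488 FPKM in SHR adrenal glands, against 24.96, 23.3, 34.5 and 22.3 FPKM in WKY adrenal glands. The ventricular values were 36.6, 27.97, 46.2 and 22.5 FPKM in SHR ventricles, against 17.1, 17.4, 18.5 and 15.6 FPKM in WKY ventricles. All SHR adrenal values stood above every other library, and the tissue difference was 3.22 (SE 0.45, adjusted p = 0.000193). Nr4a1, a nuclear receptor without a classical ligand that corticotropin induces in the adrenal cortex, was at 467, 583, 168 and 358 FPKM in SHR adrenal glands, against 12.6, 22.7, 20.8 and 21.01 FPKM in WKY adrenal glands. The ventricles held 15.5, 11.4, 28.3 and 7.09 FPKM in SHR ventricles, against 6.87, 5.27, 6.04 and 5.29 FPKM in WKY ventricles. The strains did not overlap in either organ, but the ventricular difference of 1.12 did not pass (adjusted p = 0.0609), and the tissue difference was 3.06 (SE 0.56, adjusted p = 0.0014). Sik1 encodes a kinase that cyclic AMP induces and that holds back CREB coactivators. Its adrenal level was 108, 119.6, 30.4 and 76.8 FPKM in SHR adrenal glands, against 3.11, 2.40, 3.75 and 1.83 FPKM in WKY adrenal glands, and its ventricular level 9.56, 10.6, 9.94 and 9.46 FPKM in SHR ventricles, against 6.04, 2.97, 2.36 and 2.68 FPKM in WKY ventricles. Sik1 was higher in every SHR library of both organs, and the tissue difference was 3.01 (SE 0.50, adjusted p = 0.000607).

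The 300 bases around the annotated start are shown for 4 immediate early genes with a higher tissue difference, Junb, Nr4a1, Sik1 and Ier2. All 4 windows hold letters of the cyclic AMP response element, the site that CREB binds. Of the other higher members, Klf4 and Gadd45g hold none in their windows. Whether the site bears on the adrenal values was not tested. The windows run from 250 bases before to 50 bases after the start, are taken from RefSeq (GRCr8) and are written 5′ to 3′ on the strand of the gene. Capitals mark each TGACG or its reverse complement CGTCA; in Ier2 both overlap in the full palindrome TGACGTCA.
Junb (chr19:40080876-40081175, plus strand): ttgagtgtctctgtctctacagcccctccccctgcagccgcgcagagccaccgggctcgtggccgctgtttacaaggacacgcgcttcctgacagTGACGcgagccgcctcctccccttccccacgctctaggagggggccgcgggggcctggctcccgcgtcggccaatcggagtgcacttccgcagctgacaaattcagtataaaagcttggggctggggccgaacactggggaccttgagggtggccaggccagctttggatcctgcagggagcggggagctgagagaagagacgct
Nr4a1 (chr7:134259888-134260187, plus strand): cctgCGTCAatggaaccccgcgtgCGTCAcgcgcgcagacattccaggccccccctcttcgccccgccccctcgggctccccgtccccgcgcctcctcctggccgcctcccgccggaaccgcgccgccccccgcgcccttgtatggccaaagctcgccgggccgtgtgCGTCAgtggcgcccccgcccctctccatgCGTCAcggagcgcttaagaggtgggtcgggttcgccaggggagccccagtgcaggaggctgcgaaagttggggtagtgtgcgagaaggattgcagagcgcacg
Sik1 (chr20:9958597-9958896, minus strand): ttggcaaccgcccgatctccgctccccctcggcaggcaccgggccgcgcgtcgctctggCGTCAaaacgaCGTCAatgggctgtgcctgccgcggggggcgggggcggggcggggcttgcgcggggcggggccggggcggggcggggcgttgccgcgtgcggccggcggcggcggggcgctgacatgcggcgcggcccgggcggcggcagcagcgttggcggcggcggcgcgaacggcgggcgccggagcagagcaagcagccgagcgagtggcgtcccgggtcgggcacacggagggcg
Ier2 (chr19:40399123-40399422, plus strand): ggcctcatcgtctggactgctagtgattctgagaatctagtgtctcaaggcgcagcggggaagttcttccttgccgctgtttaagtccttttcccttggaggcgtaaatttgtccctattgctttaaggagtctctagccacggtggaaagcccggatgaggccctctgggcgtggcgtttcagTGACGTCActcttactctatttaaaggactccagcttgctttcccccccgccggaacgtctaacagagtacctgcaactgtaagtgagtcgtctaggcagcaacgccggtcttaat
Windows were found for 22 of the 31 tested immediate early genes. The letters TGACG, on either strand, stood in 8 of 10 windows of immediate early genes with a higher tissue difference and in 6 of 12 windows of the other immediate early genes, against 3035 of 9087 windows of all genes tested (33.4%) and 6030 of 27457 windows in the RefSeq table (22.0%). The full TGACGTCA stood in 3 of 10 and 2 of 12 windows, against 297 of 9087 (3.27%) and 525 of 27457 (1.91%). A match is a run of letters and not a measured binding site.

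Ddit4 encodes an inhibitor of mTORC1 signalling that stress and glucocorticoids induce. Its tissue difference, 4.45 (SE 0.69, adjusted p = 0.000472), was the most positive among called genes with a symbol within the limits of the naming rule. The limits were a mean of 5 FPKM or more in a strain of each organ and no overlap of the strains in the organ with the larger strain difference. Ddit4 was at 396, 427, 162.69 and 360.5 FPKM in SHR adrenal glands, against 16.9, 7.79, 9.76 and 9.88 FPKM in WKY adrenal glands. The ventricular values of Ddit4 were 50.8, 53.3, 14.5 and 45.9 FPKM in SHR ventricles, against 68.4, 22.7, 16.9 and 28.2 FPKM in WKY ventricles, and the strains overlapped there. Rgs2, a regulator of G protein signalling that limits angiotensin and catecholamine responses, was at 532, 506, 184 and 289.6 FPKM in SHR adrenal glands, against 30.8, 35, 35.3 and 16.6 FPKM in WKY adrenal glands. Its ventricular values overlapped, at 9.14, 11.7, 7.67 and 7.51 FPKM in SHR ventricles, against 9.68, 12.7, 7.94 and 8.42 FPKM in WKY ventricles. The tissue difference was 3.66 (SE 0.45, adjusted p = 7.31e-05). Ier2 was at 81.2, 84.2, 47.0 and 74.7 FPKM in SHR adrenal glands, against 18.6, 20.3, 19.6 and 20.8 FPKM in WKY adrenal glands, with 29.2, 26.8, 34.04 and 28.8 FPKM in SHR ventricles, against 26.9, 23.9, 19.9 and 18.5 FPKM in WKY ventricles and a tissue difference of 1.36 (SE 0.22, adjusted p = 0.00029). Dusp1, which switches off MAP kinases, Fos, an AP-1 factor, and Nr4a2 had tissue differences of 2.19, 3.10 and 3.13 (adjusted p = 0.000816, 0.00135 and 0.00195). The remaining higher members were Klf4, Btg2, Gadd45g, Cyr61, Ier3 and Csrnp1, at 1.08 to 1.66.

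**Figure D2:**
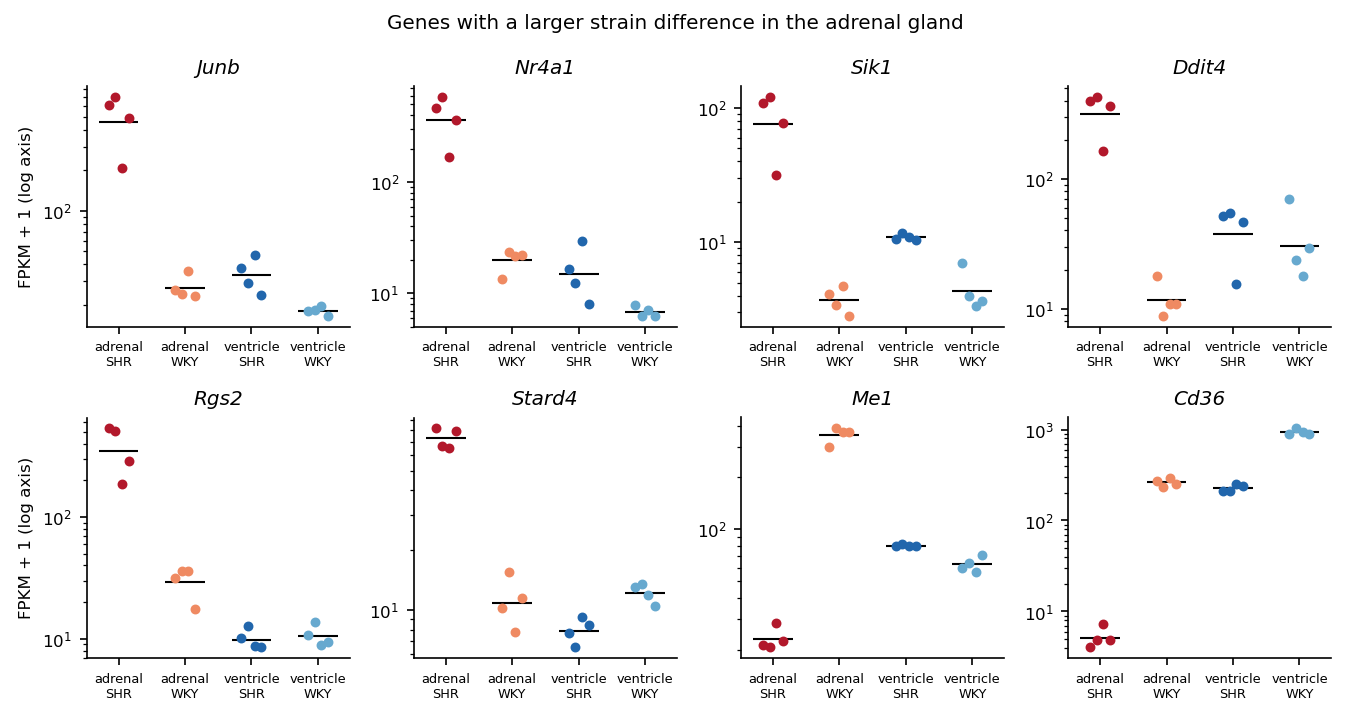
FPKM + 1 on a log axis in each of the 16 libraries for 8 genes with a larger strain difference in the adrenal gland; points are libraries in replicate order and lines are means on the log scale. The SHR adrenal libraries stand apart from the other groups for Junb, Nr4a1, Sik1, Ddit4, Rgs2 and Stard4, and below them for Me1 and Cd36.

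The 3 members with a lower tissue difference behaved otherwise. Ier5, a stress-induced regulator of heat shock factor, was at 4.84, 3.94, 7.17 and 4.82 FPKM in SHR adrenal glands, against 14.7, 14.6, 13.96 and 17.04 FPKM in WKY adrenal glands. It was at 26.5, 22.4, 32.8 and 22.9 FPKM in SHR ventricles, against 17.04, 24.99, 21.8 and 14.3 FPKM in WKY ventricles, where the strains overlapped, and the tissue difference was -1.81 (SE 0.24, adjusted p = 6.59e-05). Myc and Ctgf, a matricellular growth factor gene also listed among hypertrophy genes, rose in SHR ventricles by 1.18 and 1.51, and had adrenal differences of -0.46 and -0.59 that did not pass. Within the SHR adrenal libraries the mean log2 level of the list was 5.46, 5.44, 4.52 and 5.14 for replicates 1 to 4, against 3.58 to 3.72 in WKY adrenal glands; it was 3.98 to 4.46 in SHR ventricles and 3.35 to 3.77 in WKY ventricles. Replicate 3 was thus the lowest SHR adrenal library and still above all WKY libraries. Without SHR replicate 3 in both organs, 17 members had a higher tissue difference. The labels give no time or order of collection, so strain and handling of the tissue cannot be told apart here.

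**Figure D3:**
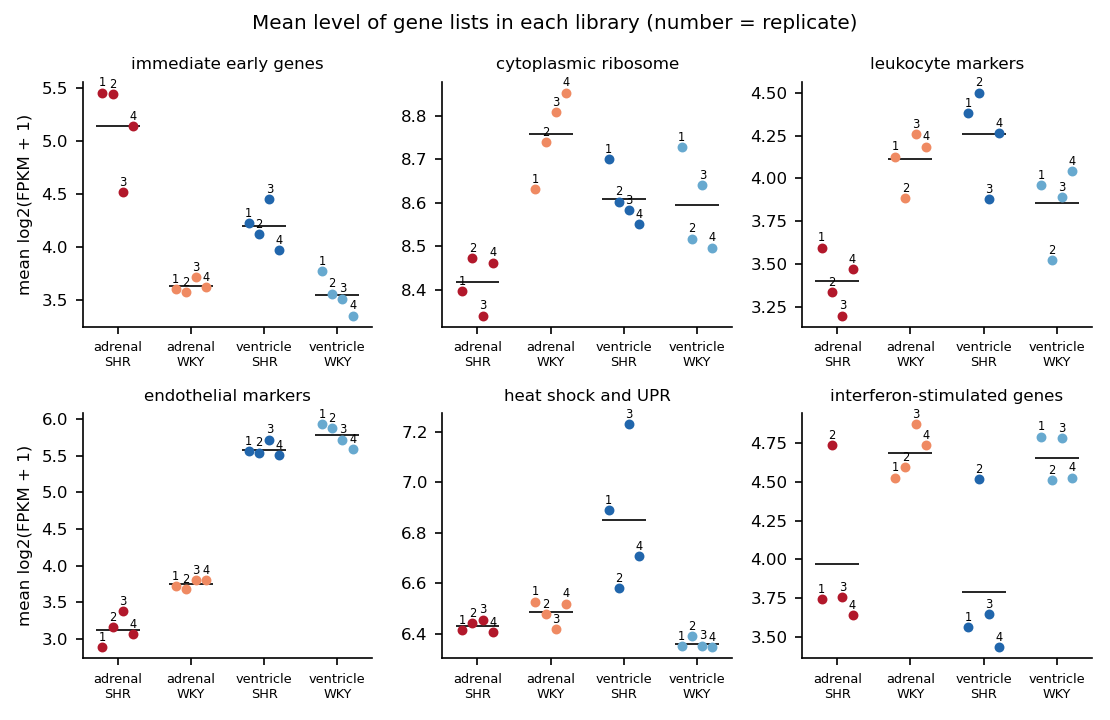
Mean log2(FPKM + 1) over the tested members of 6 gene lists in each library; numbers mark the replicate and lines the group mean. SHR adrenal libraries lie above the other groups for immediate early genes, at 4.52 to 5.46, and SHR replicate 2 lies within the WKY range for interferon-stimulated genes in both organs.

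Within the same limits of level and overlap, the most negative tissue difference among called genes with a symbol was that of Me1. Me1, the cytosolic malic enzyme that makes NADPH, was at 20.3, 19.6, 27.6 and 21.6 FPKM in SHR adrenal glands, against 301, 384, 364 and 366 FPKM in WKY adrenal glands. In the ventricle the order was turned round, at 79.4, 80.7, 79.2 and 78.5 FPKM in SHR ventricles, against 58.7, 62.8, 55.9 and 70.2 FPKM in WKY ventricles. The tissue difference was -4.30 (SE 0.14, adjusted p = 4.92e-12). Akr1c14, a hydroxysteroid dehydrogenase, was at 2.35, 1.79, 3.76 and 2.71 FPKM in SHR adrenal glands, against 56.2, 47.8, 50.2 and 57.4 FPKM in WKY adrenal glands; its ventricular values, 32.2, 39.3, 39.5 and 36.6 FPKM in SHR ventricles, against 47.2, 45.6, 41.5 and 30.4 FPKM in WKY ventricles, overlapped. Its tissue difference was -3.77 (SE 0.21, adjusted p = 8.93e-09). Hsd11b1, which regenerates active glucocorticoid inside cells, was at 12.3, 12.5, 8.51 and 11.2 FPKM in SHR adrenal glands, against 79.9, 56.2, 57.3 and 62.6 FPKM in WKY adrenal glands. The ventricles held 32.2, 45.5, 35.1 and 34.1 FPKM in SHR ventricles, against 40.2, 35.6, 44.5 and 48.8 FPKM in WKY ventricles, with overlapping strains, and the tissue difference was -2.22 (SE 0.20, adjusted p = 1.56e-06).

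Cd36, the fatty acid translocase whose defect in SHR has been linked to the strain's lipid and glucose phenotype, was lower in SHR in both organs and by more in the adrenal gland. It was at 3.03, 3.80, 6.23 and 3.80 FPKM in SHR adrenal glands, against 271, 232, 292 and 250.82 FPKM in WKY adrenal glands. The ventricles had 207, 208, 248 and 237 FPKM in SHR ventricles, against 903, 1027, 931 and 891 FPKM in WKY ventricles. No SHR library reached a WKY library in either organ, and the tissue difference was -3.63 (SE 0.19, adjusted p = 4.42e-09). The deposited table also holds RGD1565355, whose gene identifier belongs in GRCr8 to Cd36l1, the neighbour of Cd36 on chromosome 4; the naming rule leaves out loci that carry only such a number, so it was chosen after its values were seen. RGD1565355 was at 2.65, 1.79, 4.05 and 1.85 FPKM in SHR adrenal glands, against 14.8, 9.97, 12.3 and 7.87 FPKM in WKY adrenal glands. Its ventricular order was the reverse, at 143, 143, 171 and 166 FPKM in SHR ventricles, against 18.3, 33.04, 29.2 and 44.3 FPKM in WKY ventricles, and its tissue difference was -4.12 (SE 0.35, adjusted p = 1.94e-06). Reads can be shared between near-identical neighbours, so both levels are uncertain.

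Of 32 tested genes for cholesterol synthesis and uptake, 4 had a higher tissue difference (among them Stard4, Pmvk and Npc1) and 8 a lower one, with a median of -0.03, against 13.9% and 15.4% of all genes; the higher share was near that of all genes. Stard4, a cytosolic sterol carrier, was at 80.8, 66.0, 64.0 and 78.4 FPKM in SHR adrenal glands, against 9.31, 14.5, 6.78 and 10.5 FPKM in WKY adrenal glands. It was at 6.67, 5.51, 8.30 and 7.43 FPKM in SHR ventricles, against 12.1, 12.5, 10.9 and 9.49 FPKM in WKY ventricles, lower in every SHR ventricle, and the tissue difference was 3.36 (SE 0.24, adjusted p = 1.61e-07). The lower members included the sterol exporters Abcg1 (-1.03) and Abca1 (-0.79), the lysosomal cholesteryl ester hydrolase Lipa (-0.90) and the synthesis enzymes Tm7sf2, Mvd, Cyp51 and Lss (-0.995 to -0.59). Lipa averaged 167 ± 5.33 FPKM in SHR adrenal glands and 303 ± 56.0 FPKM in WKY adrenal glands and 32.7 ± 2.01 FPKM in SHR ventricles and 31.3 ± 2.05 FPKM in WKY ventricles (SD, n = 4). In the 6 tested adrenal cortex markers, the tissue difference was higher in 2 and lower in 1, against 13.9% and 15.4% of all genes. Star, which moves cholesterol into mitochondria, was at 8001, 7516, 7267 and 7404 FPKM in SHR adrenal glands, against 5533, 6038, 4505 and 4096 FPKM in WKY adrenal glands, and its ventricular level was near the bottom of the scale, at 2.06, 1.19, 1.33 and 2.74 FPKM in SHR ventricles, against 1.87, 1.53, 2.15 and 1.93 FPKM in WKY ventricles. The tissue difference of Star was 0.65 (SE 0.21, adjusted p = 0.0315), and it lost its call without any 1 of 8 libraries, replicates 3 and 4 of WKY and 1 of SHR in the adrenal gland and 1, 3 and 4 of WKY and 2 and 3 of SHR in the ventricle (adjusted p = 0.0504 to 0.0650). The 21-hydroxylase Cyp21a1 did not differ beyond its spread in the adrenal gland (10315 ± 303 FPKM in SHR adrenal glands and 10305 ± 314 FPKM in WKY adrenal glands), and its tissue difference of 0.35 (adjusted p = 0.0377) came with ventricular values of 9.13, 7.76, 6.09 and 8.33 FPKM in SHR ventricles, against 10.1, 11.6, 9.35 and 9.69 FPKM in WKY ventricles. It lost its call without any 1 of 10 libraries, replicates 1, 3 and 4 of WKY and 2, 3 and 4 of SHR in the adrenal gland and 1 and 2 of WKY and 2 and 3 of SHR in the ventricle (adjusted p = 0.0507 to 0.0804). Fdx1, the electron donor of mitochondrial steroid hydroxylases, averaged 2176 ± 169 FPKM in SHR adrenal glands and 3514 ± 106 FPKM in WKY adrenal glands, with a tissue difference of -0.58 (adjusted p = 0.000101).

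Fatty acid oxidation genes had 5 higher and 2 lower tissue differences among 29 and a median of 0.11, against 13.9% and 15.4% of all genes, so the higher share was near that of all genes. Cpt1b, the muscle form of the carnitine shuttle's first enzyme, and Ech1, which isomerises unsaturated acyl chains, had tissue differences of 1.38 and 0.92 (adjusted p = 0.00155 and 4.86e-05). Ech1 was at 225, 231, 209.8 and 247 FPKM in SHR adrenal glands, against 161, 200, 185 and 138 FPKM in WKY adrenal glands. It was at 468, 503, 481 and 481 FPKM in SHR ventricles, against 686, 656, 699.99 and 673 FPKM in WKY ventricles, so the strains lay apart in both organs in opposite order. Hadha, a subunit of the trifunctional protein, had a tissue difference of 0.45 (SE 0.08, adjusted p = 0.000778), with 479 ± 17.5 FPKM in SHR adrenal glands and 380.1 ± 27.9 FPKM in WKY adrenal glands. The lower members were Cd36 and the transporter gene Slc27a1 (-0.28).

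The hepcidin gene Hamp, which encodes the hormone that blocks iron export, was at 164, 124, 48.05 and 148 FPKM in SHR adrenal glands, against 394, 514, 326 and 647 FPKM in WKY adrenal glands. Its low ventricular values, 10.3, 4.45, 2.34 and 6.58 FPKM in SHR ventricles, against 2.14, 3.47, 0.93 and 2.12 FPKM in WKY ventricles, overlapped, and the tissue difference was -3.09 (SE 0.62, adjusted p = 0.00239). Myom2, a protein of the sarcomere's M band, was at 0.52, 1.09, 0.67 and 1.51 FPKM in SHR adrenal glands, against 21.6, 13.99, 15.7 and 19.8 FPKM in WKY adrenal glands. The ventricles held 797, 807, 750.1 and 879 FPKM in SHR ventricles, against 1012, 1043, 1054 and 1064 FPKM in WKY ventricles, lower in every SHR library. Its tissue difference was -2.91 (SE 0.20, adjusted p = 1.12e-07), on adrenal levels of 0.117% of the ventricular level in SHR and 1.71% in WKY.

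Most cardiomyocyte markers, at trace levels in the adrenal gland, also had lower tissue differences. Their median adrenal strain difference was -0.78, against -3.28 for Myom2. Of 8 tested cardiomyocyte markers, 6 had a lower tissue difference and none a higher one (median -0.74), against 15.4% and 13.9% of all genes. Of the 8, Myh6 and Myl2 reached the minimum in the adrenal gland only through WKY, so they could enter only with a lower value in SHR, and both are among the 6. The 13 listed markers summed to 6.71 to 14.99 FPKM in SHR adrenal glands and 22.4 to 27.8 FPKM in WKY adrenal glands, which is 0.0213% and 0.0467% of the ventricular sum of the same strain, and Nkx2-5, a defining cardiac transcription factor, was listed at 0 in all 8 adrenal libraries. Tbx20, a cardiac transcription factor with the highest adrenal level among them relative to the ventricle, was at 2.22, 2.24, 1.90 and 4.06 FPKM in SHR adrenal glands, against 7.02, 5.88, 6.99 and 5.30 FPKM in WKY adrenal glands, with 25.4, 19.5, 26.02 and 27.97 FPKM in SHR ventricles, against 18.2, 15.5, 21.7 and 28.2 FPKM in WKY ventricles. In whole organs, fewer cells of a type and less RNA per cell cannot be told apart. Whether the adrenal reads of these genes come from cardiomyocytes, vessels or other libraries was not tested.

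Among the 447 genes with opposite signs and a gene symbol, Penk had the largest smaller strain difference of the pair, 1.22 in size. Penk encodes the precursor of the enkephalin opioid peptides, which chromaffin cells store with adrenaline and which the heart also makes. It was at 1.86, 2.61, 1.60 and 2.56 FPKM in SHR adrenal glands, against 16.6, 16.5, 11.4 and 19.9 FPKM in WKY adrenal glands. The ventricles had 214, 213, 261 and 119 FPKM in SHR ventricles, against 78.7, 81.7, 94.8 and 76.7 FPKM in WKY ventricles. SHR was thus below WKY in every adrenal library and above it in every ventricular library, and the tissue difference was -3.65 (SE 0.30, adjusted p = 1.18e-06). Wfdc1, a secreted protein with a whey acidic protein domain, was at 1.46, 1.08, 1.22 and 2.17 FPKM in SHR adrenal glands, against 3.13, 3.46, 3.96 and 6.15 FPKM in WKY adrenal glands. Its ventricular level was 88.9, 94.8, 82.6 and 74.7 FPKM in SHR ventricles, against 44.2, 37.8, 34.1 and 33.8 FPKM in WKY ventricles. This made a tissue difference of -2.21 (SE 0.22, adjusted p = 4.63e-06). C6, a component of the complement membrane attack complex, was near the minimum level, at 0.17, 0.28, 0.54 and 0.98 FPKM in SHR adrenal glands, against 1.81, 3.88, 2.65 and 1.84 FPKM in WKY adrenal glands, and at 3.76, 4.99, 2.48 and 2.79 FPKM in SHR ventricles, against 1.38, 1.14, 1.01 and 0.25 FPKM in WKY ventricles. C6 reached the minimum in the adrenal gland only through WKY, so its adrenal direction was fixed by the filter. The tissue difference of C6 was -2.46 (SE 0.33, adjusted p = 7.55e-05).

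Postn encodes periostin, a matrix protein of activated fibroblasts. It was at 0.42, 0.45, 0.52 and 1.34 FPKM in SHR adrenal glands, against 1.08, 3.39, 3.15 and 2.41 FPKM in WKY adrenal glands, with SHR replicate 4 above WKY replicate 1. The ventricular values were 38.3, 36.5, 18.02 and 25.01 FPKM in SHR ventricles, against 3.97, 3.03, 6.86 and 4.20 FPKM in WKY ventricles. The tissue difference was -3.49 (SE 0.40, adjusted p = 1.97e-05). Adra1d, an alpha-1 adrenergic receptor of smooth muscle, ran the other way. It was at 13.9, 10.9, 10.3 and 15.5 FPKM in SHR adrenal glands, against 6.58, 5.45, 5.60 and 5.57 FPKM in WKY adrenal glands. The ventricles had 1.44, 0.61, 0.25 and 1.07 FPKM in SHR ventricles, against 3.88, 2.66, 1.99 and 3.87 FPKM in WKY ventricles. The strains did not overlap in either organ, and the tissue difference was 2.16 (SE 0.28, adjusted p = 4.18e-05). Cidea, a lipid droplet protein of brown fat, also changed in opposite directions, with 103 ± 19.954 FPKM in SHR adrenal glands and 53.3 ± 10.8 FPKM in WKY adrenal glands, 32.5 ± 5.34 FPKM in SHR ventricles and 82.7 ± 4.02 FPKM in WKY ventricles (SD, n = 4) and a tissue difference of 2.28 (SE 0.21, adjusted p = 2.15e-06). Adipocyte markers gave 2 higher and 1 lower tissue difference among 6, against 13.9% and 15.4% of all genes. The other calls were at Pparg and Lpl (0.81 and -1.03). Pparg lost its call without replicate 1 or 4 of WKY or 1 of SHR in the adrenal gland and without replicate 1 of either strain in the ventricle (adjusted p = 0.0516 to 0.0602).

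**Figure D4:**
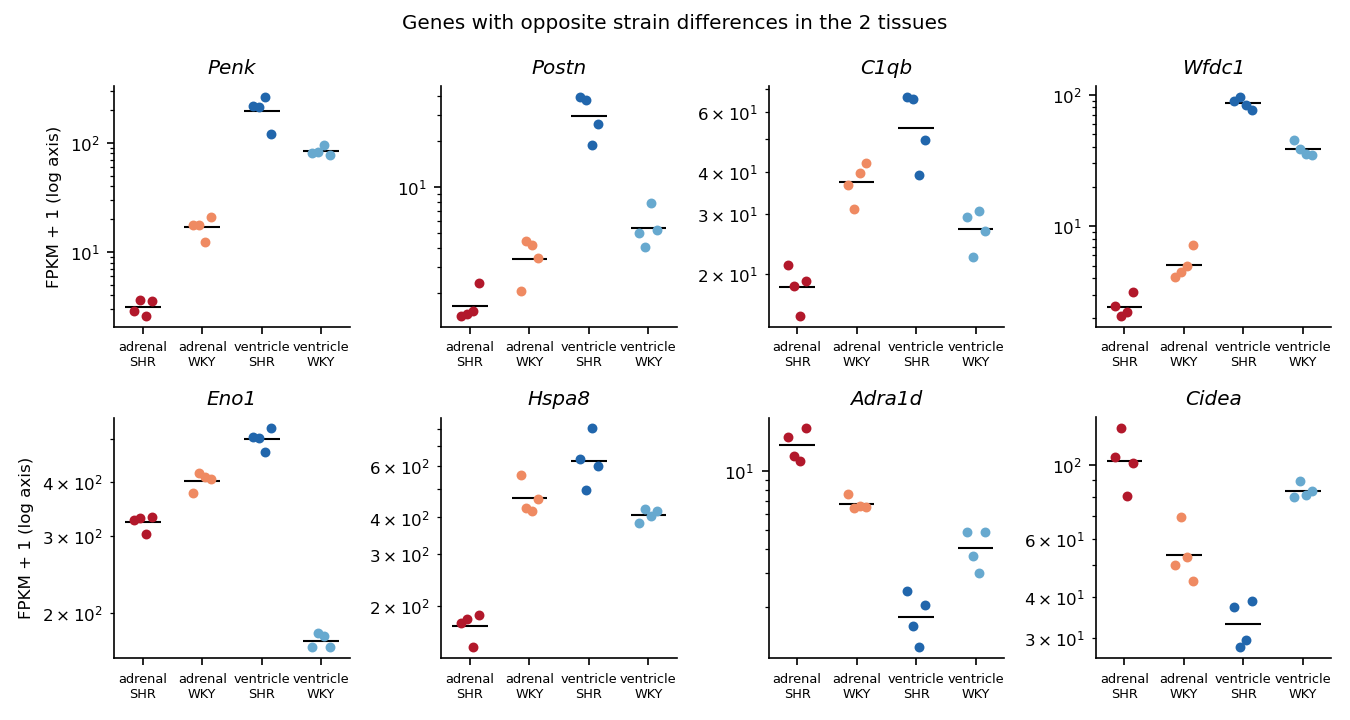
FPKM + 1 on a log axis in each of the 16 libraries for 8 genes with opposite strain differences in the organs; points are libraries in replicate order and lines are means on the log scale. Penk, Postn, C1qb, Wfdc1, Eno1 and Hspa8 are lower in SHR in the adrenal gland and higher in the ventricle, and Adra1d and Cidea the reverse.

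Macrophage and other leukocyte markers were lower in SHR adrenal glands, and some were higher in SHR ventricles. Of 21 tested markers, 17 had a lower tissue difference and none a higher one (median -1.11), against 15.4% and 13.9% of all genes. In SHR adrenal glands 17 fell and 1, Cd14, rose, against 24.8% and 17.8% of all genes. In SHR ventricles 8 rose and none fell, against 9.31% and 12.6%. In 7 of the markers the signs were opposite, against 3.92% of all genes. C1qa, C1qb and C1qc encode the chains of complement C1q that tissue macrophages make. The others were the lysozyme gene Lyz2, the folate receptor gene Folr2, the lysosomal marker Cd68 and the integrin gene Itgb2. C1qb was at 20.3, 17.4, 14.02 and 18.03 FPKM in SHR adrenal glands, against 35.6, 30.1, 38.7 and 41.5 FPKM in WKY adrenal glands. The ventricles had 65.5, 64.4, 38.2 and 48.7 FPKM in SHR ventricles, against 28.5, 21.3, 29.7 and 25.7 FPKM in WKY ventricles. The tissue difference was -2.02 (SE 0.23, adjusted p = 1.58e-05). C1qa, with -1.91 (SE 0.22, adjusted p = 1.86e-05), followed the same order. Ctss, a lysosomal protease of antigen-presenting cells, was at 16.5, 14.4, 11.2 and 12.7 FPKM in SHR adrenal glands, against 50.2, 38.7, 52.2 and 50.3 FPKM in WKY adrenal glands, with overlapping ventricular values and a tissue difference of -1.87 (SE 0.22, adjusted p = 1.95e-05). The list's mean log2 level was 3.20 to 3.60 in SHR adrenal glands and 3.89 to 4.26 in WKY adrenal glands, and 3.88 to 4.50 in SHR ventricles and 3.52 to 4.04 in WKY ventricles, where SHR replicate 3 lay within the WKY range.

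Endothelial markers differed mainly in the adrenal gland. Of 21, 9 had a lower tissue difference and none a higher one (median -0.39), against 15.4% and 13.9% of all genes. In SHR adrenal glands 19 fell and in SHR ventricles 5, against 24.8% and 12.6% of all genes, and none rose. Tek, the angiopoietin receptor, was at 10.5, 14.6, 16.5 and 11.2 FPKM in SHR adrenal glands, against 29.9, 24.8, 27.1 and 27.99 FPKM in WKY adrenal glands. It was at 39.5, 41.7, 50.9 and 44.4 FPKM in SHR ventricles, against 55.1, 50.3, 46.5 and 41.6 FPKM in WKY ventricles, with overlapping strains, and the tissue difference was -0.89 (SE 0.17, adjusted p = 0.00129). Cldn5, a tight junction protein, had a tissue difference of -1.50 (SE 0.31, adjusted p = 0.00227), with 1.14 ± 0.33 FPKM in SHR adrenal glands and 3.02 ± 0.53 FPKM in WKY adrenal glands, and ventricular values that ran up to 95.4 FPKM in SHR replicate 3. Cd34 fell in both organs, with strain differences of -1.06 (adrenal gland) and -0.43 (ventricle) and a tissue difference of -0.63 (adjusted p = 0.00288). Without adrenal SHR replicate 3, 14 members had a lower tissue difference. Smooth muscle and pericyte markers gave 5 lower and 1 higher of 14 (median -0.33), against 15.4% and 13.9% of all genes. The lower ones included Cspg4 (-0.75) and the platelet-derived growth factor receptor gene Pdgfrb (-0.57). The higher one was the potassium channel gene Kcnj8 (0.69), which lost its call without SHR replicate 2 in both organs (adjusted p = 0.0547). Without adrenal WKY replicate 3 or ventricular WKY replicate 2, 3 members of that list were lower. Erythroid markers fell in both organs, 4 of 4 tested in adrenal glands and 3 of 4 in ventricles, against 24.8% and 12.6% of all genes. Among them 1 had a higher tissue difference, Hba-a1, against 13.9% of all genes. Of the 4, Hba-a1 (in both organs) and Alas2 reached the minimum in an organ only through WKY. Their fall there was fixed by the filter, so the counts of this list rest partly on it. Hba-a1 was listed at 0 in every SHR adrenal library, and its reads can be shared with other globin genes. With SHR at or near 0, its tissue difference follows the WKY level, on average 4.31 FPKM in adrenal glands and 16.3 FPKM in ventricles.

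More matrix genes fell than rose in SHR adrenal glands, and they went both ways in SHR ventricles. Of 44 tested, 20 had a lower and 3 a higher tissue difference (median -0.61), against 15.4% and 13.9% of all genes. In the adrenal gland 24 fell and 6 rose, against 24.8% and 17.8% of all genes. In the ventricle 11 fell and 10 rose, against 12.6% and 9.31%. The summed FPKM of the 49 listed genes ran against the adrenal counts, at 4036 to 4507 in SHR and 2076 to 2415 in WKY adrenal glands. It overlapped in ventricles, at 3191 to 3716 in SHR and 3240 to 3810 in WKY. The counts weigh each gene alike, and the sum follows the genes of highest level. Besides Postn, the most negative was Thbs4, a thrombospondin of stressed muscle, with -3.32 (SE 0.59, adjusted p = 0.00098). It was followed by Spp1, which encodes osteopontin, with -1.66 (SE 0.50, adjusted p = 0.0238). Spp1 rose by 2.11 in adrenal glands and by 3.77 in ventricles, so the ventricular rise was the larger. The fibrillar collagen genes Col1a1 and Col5a1 fell in the adrenal gland (strain differences -1.08 and -1.22), and their ventricular differences of 0.32 and -0.14 did not pass. Tgfbi, a collagen-binding matrix protein, averaged 2.41 ± 0.34 FPKM in SHR adrenal glands and 4.92 ± 0.64 FPKM in WKY adrenal glands and 20.5 ± 3.50 FPKM in SHR ventricles and 15.2 ± 1.10 FPKM in WKY ventricles, with a tissue difference of -1.20 (SE 0.16, adjusted p = 6.64e-05). The 3 higher members were Col18a1, Lamb1 and Sparc, all with opposite signs. Col18a1, a basement membrane collagen whose C-terminal fragment is endostatin, was at 35.9, 47.2, 40.6 and 42.2 FPKM in SHR adrenal glands, against 11.1, 13.03, 13.9 and 13.4 FPKM in WKY adrenal glands. It was at 6.38, 4.96, 5.22 and 6.09 FPKM in SHR ventricles, against 8.85, 6.76, 6.74 and 6.6 FPKM in WKY ventricles. This made a tissue difference of 1.92 (SE 0.15, adjusted p = 2.39e-07).

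**Figure D5:**
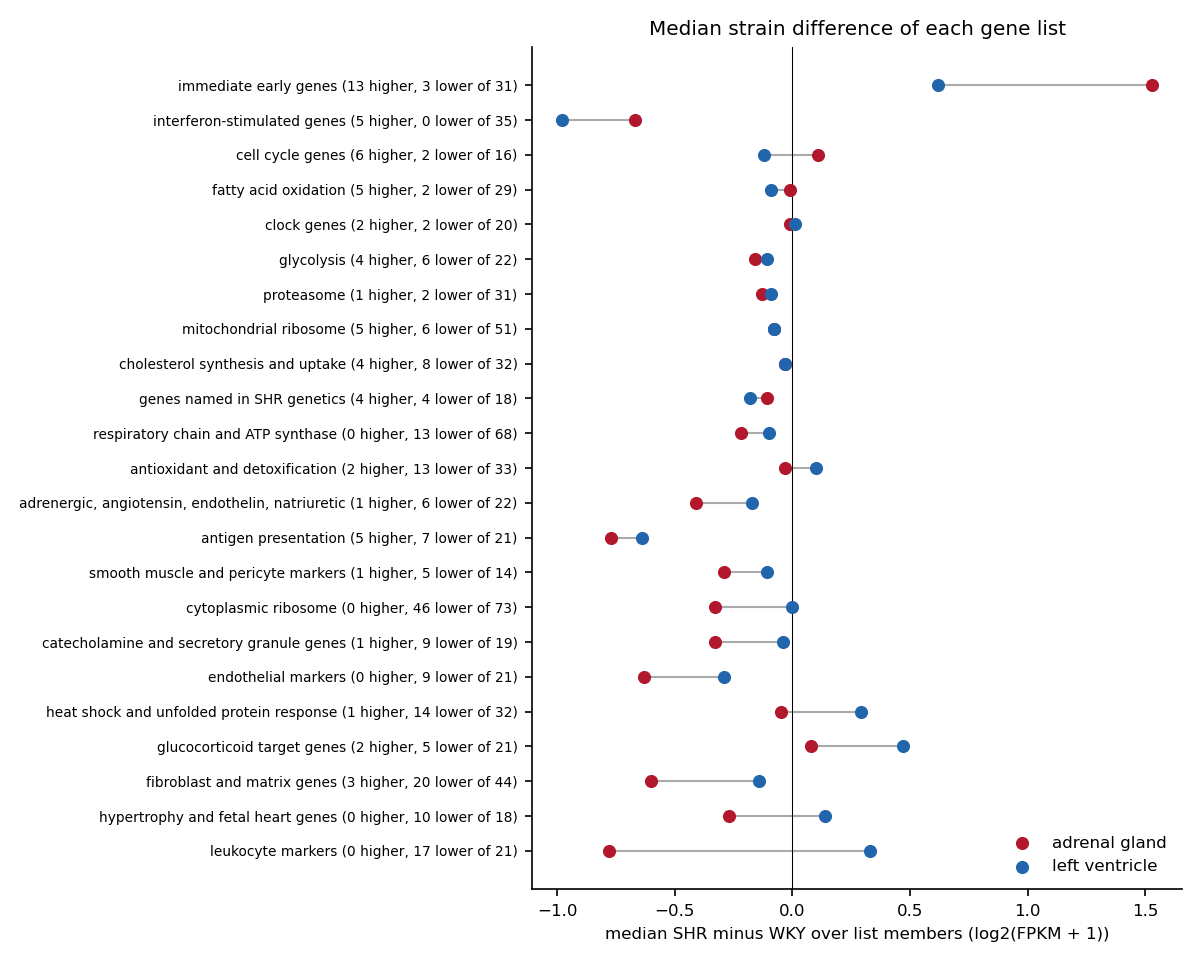
Median strain difference (SHR minus WKY, log2(FPKM + 1)) over the tested members of each gene list with at least 10 of them, in the adrenal gland (red) and the left ventricle (blue); the labels give how many members had a higher or lower tissue difference. Immediate early genes, at 1.53 and 0.62, and leukocyte markers, at -0.78 and 0.33, lie at the ends of the order.

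Of 30 listed hypertrophy and fetal heart genes 18 were tested. A lower tissue difference was found in 10 and a higher one in none (median -0.61), against 15.4% and 13.9% of all genes. Opposite signs were found in 2, against 3.92% of all genes. In SHR adrenal glands 8 fell and 3 rose, against 24.8% and 17.8% of all genes. In SHR ventricles 5 rose and 1 fell, against 9.31% and 12.6%. Myh6, among the 10 and the 8, reached the minimum in the adrenal gland only through WKY, so its adrenal direction was fixed by the filter. Fhl1, a LIM protein of the sarcomere that transmits stretch, was at 11.2, 13.6, 10.6 and 13.6 FPKM in SHR adrenal glands, against 15.6, 17.2, 20.8 and 20.3 FPKM in WKY adrenal glands. In ventricles it was at 539, 330.3, 575 and 425 FPKM in SHR ventricles, against 128, 139, 161 and 147 FPKM in WKY ventricles. SHR was lower in every adrenal library and higher in every ventricular one, with a tissue difference of -2.22 (SE 0.21, adjusted p = 3.05e-06). Hand2, a transcription factor of the heart and of sympathoadrenal cells, averaged 9.90 ± 2.93 FPKM in SHR adrenal glands and 21.7 ± 2.66 FPKM in WKY adrenal glands and 42.2 ± 1.75 FPKM in SHR ventricles and 32.9 ± 3.45 FPKM in WKY ventricles, with a tissue difference of -1.44 (SE 0.20, adjusted p = 7.53e-05). Lgals3, which encodes galectin-3 of macrophages and fibrosis, had a tissue difference of -1.24 (SE 0.16, adjusted p = 4.94e-05) and opposite signs.

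Many chaperone genes rose in SHR ventricles, and they went both ways in SHR adrenal glands. Of 32 heat shock and unfolded protein response genes, 14 had a lower tissue difference and 1, Dnajb1, a higher one (median -0.46). Over all genes these shares were 15.4% and 13.9%. In ventricles 17 rose and none fell, against 9.31% and 12.6% of all genes. In adrenal glands 6 rose and 6 fell, against 17.8% and 24.8%. Hspa8, the constitutive Hsc70 chaperone, was at 174, 179, 143 and 185 FPKM in SHR adrenal glands, against 556, 431, 419 and 462 FPKM in WKY adrenal glands. It was at 632, 497, 805 and 599.97 FPKM in SHR ventricles, against 382, 427, 402 and 421 FPKM in WKY ventricles. The tissue difference was -2.06 (SE 0.17, adjusted p = 9.70e-07). Hspb8, a small heat shock protein that serves chaperone-assisted autophagy, had opposite signs too, with 33.1 ± 8.69 FPKM in SHR adrenal glands and 65.5 ± 8.46 FPKM in WKY adrenal glands, 383 ± 55.3 FPKM in SHR ventricles and 227 ± 19.5 FPKM in WKY ventricles and a tissue difference of -1.73 (SE 0.21, adjusted p = 2.67e-05). Hsp90aa1, the inducible Hsp90, rose by 1.55 in the ventricle, and its adrenal difference of -0.27 did not pass. The endoplasmic reticulum members Hspa5, Hsp90b1, Sdf2l1 and Pdia6 had tissue differences of -0.67, -0.59, -1.14 and -0.53. The ventricular SHR libraries spread widely in the list's mean, with replicate 3 the highest at 7.23 and the others at 6.58 to 6.89, against 6.35 to 6.39 in WKY ventricles.

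Glucocorticoid target genes, which the cortical hormone reaches in both organs, leaned upward in SHR ventricles and went both ways in SHR adrenal glands. Of 21, 2 had a higher tissue difference, Ddit4 and Glul, and 5 a lower one (Cebpb, Mt2A, Angptl4, Cebpd and Cdkn1a), with a median of -0.50. Over all genes 13.9% were higher and 15.4% lower. In ventricles the median strain difference of the list was 0.47, against -0.033 over all genes. There 7 rose and none fell, against 9.31% and 12.6% of all genes. In adrenal glands the median was 0.08, against -0.031 over all genes, and 4 rose and 3 fell, against 17.8% and 24.8%. Mt2A, a metal-binding metallothionein, was at 116, 71.9, 149 and 127 FPKM in SHR adrenal glands, against 50.2, 81.4, 90.8 and 89.9 FPKM in WKY adrenal glands, with overlap. It was at 60.8, 40.4, 31.2 and 44.1 FPKM in SHR ventricles, against 6.2, 7.15, 10.4 and 7.03 FPKM in WKY ventricles, higher in every SHR ventricle, and the tissue difference was -1.80 (SE 0.36, adjusted p = 0.00221). The transcription factor gene Cebpb rose by 1.34 in the ventricle, with an adrenal difference of -0.65 that did not pass. The cell cycle inhibitor Cdkn1a had a tissue difference of -0.81 (adjusted p = 0.00199).

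Antioxidant genes leaned the same way as the chaperones, with 13 lower and 2 higher of 33 (median -0.20), against 15.4% and 13.9% of all genes. The thioredoxin reductase genes Txnrd1 and Txnrd2 had tissue differences of -0.68 and -0.71 (adjusted p = 1.01e-05 and 2.35e-05). Txnrd1 was at 37.9, 40.9, 39.9 and 35.6 FPKM in SHR adrenal glands, against 47.8, 43.4, 44.8 and 45.03 FPKM in WKY adrenal glands. Its ventricular values were 34.1, 33.4, 34.1 and 30.9 FPKM in SHR ventricles, against 23.03, 23.6, 24.6 and 24.5 FPKM in WKY ventricles, so the strains lay apart in opposite order. Prdx5, a mitochondrial peroxiredoxin, was called lower in the adrenal gland and did not pass in the ventricle, with 108 ± 4.86 FPKM in SHR adrenal glands and 175 ± 15.3 FPKM in WKY adrenal glands and a tissue difference of -0.62 (SE 0.08, adjusted p = 3.94e-05). Hmox1, heme oxygenase 1, rose by 1.27 in the ventricle alone (tissue difference -1.15). The higher members were Sod1 (0.30) and Ephx2 (0.75), a soluble epoxide hydrolase that rose in both organs and reached the minimum in the adrenal gland only through SHR. Ephx2 averaged 7.69 ± 0.75 FPKM in SHR adrenal glands and 0.46 ± 0.19 FPKM in WKY adrenal glands and 37.1 ± 2.01 FPKM in SHR ventricles and 9.69 ± 0.49 FPKM in WKY ventricles.

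Cytoplasmic ribosomal protein genes fell in SHR adrenal glands, most of them by small amounts. Of 73 tested, 46 had a lower tissue difference and none a higher one, against 15.4% and 13.9% of all genes. In SHR adrenal glands 62 fell and none rose, against 24.8% and 17.8% of all genes. In SHR ventricles 4 rose and 1 fell, against 9.31% and 12.6%. The median strain differences were -0.33 (adrenal gland) and -0.00 (ventricle). Rps2, a small subunit protein, was at 701, 761, 719 and 738 FPKM in SHR adrenal glands, against 1041, 981, 1049 and 1128 FPKM in WKY adrenal glands, and its ventricular level was 1029, 968, 965 and 905 FPKM in SHR ventricles, against 906, 846, 851 and 875 FPKM in WKY ventricles, with a tissue difference of -0.67 (SE 0.07, adjusted p = 5.62e-06). Rplp0, of the ribosomal stalk, was at 452, 458, 452 and 500.4 FPKM in SHR adrenal glands, against 549.9, 548, 597 and 607 FPKM in WKY adrenal glands, and in opposite order at 829, 754, 744 and 783 FPKM in SHR ventricles, against 676, 603, 628 and 638 FPKM in WKY ventricles (tissue difference -0.59, adjusted p = 4.02e-05). Rpsa averaged 442 ± 27.7 FPKM in SHR adrenal glands and 592 ± 41.9 FPKM in WKY adrenal glands, with a tissue difference of -0.61 (adjusted p = 0.000127). The list's mean log2 level was 8.34 to 8.47 in SHR adrenal glands and 8.63 to 8.85 in WKY adrenal glands, with no overlap, and 8.55 to 8.70 in SHR ventricles and 8.50 to 8.73 in WKY ventricles. Reads of ribosomal protein genes can be shared with their many processed copies, so single levels are uncertain.

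The respiratory chain and ATP synthase list had 13 lower and none higher of 68 (median -0.13), where 15.4% of all genes were lower and 13.9% higher. In SHR adrenal glands 44 fell, against 24.8% of all genes. In SHR ventricles 13 fell and 2 rose, against 12.6% and 9.31%. Ndufb8 fell in both organs (122 ± 4.10 FPKM in SHR adrenal glands and 189.8 ± 10.2 FPKM in WKY adrenal glands; 754 ± 37.9 FPKM in SHR ventricles and 919 ± 38.2 FPKM in WKY ventricles), with a tissue difference of -0.35, and Cyc1, cytochrome c1, had one of -0.45 (adjusted p = 0.00215 and 0.00231). Without SHR replicate 3 in both organs 8 members had a lower tissue difference. Mitochondrial ribosomal protein genes gave 5 higher and 6 lower of 51 (median -0.03), against 13.9% and 15.4% of all genes. The share called either way was below the 29.3% of all genes. Mrps9 was at 0.80, Mrps12 at -0.69 and Mrpl37 at -0.58. Proteasome genes gave 1 higher, Psmb6, and 2 lower, Psmd7 and Psmd8, of 31 (median -0.02), below the 29.3% of all genes. Psmd7 lost its call without adrenal WKY replicate 4, adrenal SHR replicate 1 or ventricular WKY replicate 1 (adjusted p = 0.0506 to 0.0602), and Psmb6 without any 1 of replicates 1 and 2 of WKY and 3 and 4 of SHR in the adrenal gland and 1, 2 and 3 of either strain in the ventricle (adjusted p = 0.0507 to 0.0706).

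Of 22 tested glycolytic genes, 4 had a higher and 6 a lower tissue difference (median 0.04), or 3 lower without adrenal WKY replicate 3, adrenal SHR replicate 1 or ventricular WKY replicate 2, against 13.9% higher and 15.4% lower of all genes. Eno1, the ubiquitous enolase, was at 326, 330.1, 303 and 331 FPKM in SHR adrenal glands, against 376, 418, 409 and 404 FPKM in WKY adrenal glands. It was at 506, 503, 468 and 529 FPKM in SHR ventricles, against 166, 179, 177 and 167 FPKM in WKY ventricles, higher in every SHR ventricle, and the tissue difference was -1.85 (SE 0.07, adjusted p = 3.43e-11). Pgam1, the brain-type phosphoglycerate mutase, averaged 690.2 ± 22.6 FPKM in SHR adrenal glands and 909 ± 10.2 FPKM in WKY adrenal glands and 162 ± 10.1 FPKM in SHR ventricles and 129 ± 4.74 FPKM in WKY ventricles, with a tissue difference of -0.72 (SE 0.07, adjusted p = 1.86e-06). Pgam2, its muscle form, had 6.80 ± 0.76 FPKM in SHR adrenal glands and 6.21 ± 1.08 FPKM in WKY adrenal glands and 576 ± 22.1 FPKM in SHR ventricles and 872 ± 82.5 FPKM in WKY ventricles, with a tissue difference of 0.71 (SE 0.14, adjusted p = 0.00111).

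Most interferon-stimulated genes were lower in SHR in both organs, and they differed between the organs in few members. Of 35 tested, 21 fell and 2 rose in SHR adrenal glands, against 24.8% and 17.8% of all genes. In SHR ventricles 25 fell and 1 rose, against 12.6% and 9.31%. A higher tissue difference was found in 5, near the 13.9% of all genes, and a lower one in none, against 15.4% (median 0.15). Among the 5 were Parp14, Ddx58, Adar and Ifi35. Adar, an RNA-editing enzyme, averaged 22.6 ± 3.77 FPKM in SHR adrenal glands and 26.4 ± 2.07 FPKM in WKY adrenal glands and 17.6 ± 3.57 FPKM in SHR ventricles and 33.045 ± 3.03 FPKM in WKY ventricles, with a tissue difference of 0.66 (SE 0.17, adjusted p = 0.00903). SHR replicate 2 stood apart in both organs: its adrenal mean of the list was 4.74, against 3.64 to 3.76 in the remaining SHR libraries and 4.53 to 4.87 in WKY. Its ventricular mean was 4.52, against 3.44 to 3.65 in the remaining SHR libraries and 4.51 to 4.79 in WKY. Without SHR replicate 2 in both organs, 11 members had a higher and 5 a lower tissue difference. Leaving it out of the ventricle alone gave 11 higher and none lower, leaving it out of the adrenal gland alone 3 higher and 3 lower, and leaving out any 1 of adrenal WKY replicates 1, 2 and 4, ventricular WKY replicates 1 and 3 and ventricular SHR replicates 1 and 4 gave 3 higher.

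Antigen presentation genes gave 5 higher and 7 lower of 21 (median -0.25), against 13.9% and 15.4% of all genes. The class II genes RT1-Ba, RT1-Bb, RT1-Da, RT1-Db1 and RT1-DMb and the invariant chain gene Cd74 had tissue differences of -0.88 to -1.25, on adrenal differences of -2.65 to -1.27. Class II genes are expressed by macrophages and other antigen-presenting cells, and Cd74 is also among the leukocyte markers. RT1-A1, a class I gene, rose in both organs, at 1334 ± 60.2 FPKM in SHR adrenal glands and 319 ± 21.046 FPKM in WKY adrenal glands and 431 ± 50.3 FPKM in SHR ventricles and 165 ± 16.1 FPKM in WKY ventricles, with a tissue difference of 0.69 (SE 0.12, adjusted p = 0.000405). Tap2, a subunit of the peptide transporter, was at 32.3, 30.6, 30.6 and 32.02 FPKM in SHR adrenal glands, against 23.3, 25.2, 27.7 and 30.6 FPKM in WKY adrenal glands. Its ventricular values were 14.8, 17.4, 15.6 and 15.6 FPKM in SHR ventricles, against 29.9, 23.5, 23.5 and 24.3 FPKM in WKY ventricles, with a tissue difference of 0.87 (SE 0.12, adjusted p = 7.53e-05). Levels of RT1 genes are uncertain because the strains carry different alleles and near-identical copies share reads.

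Genes of catecholamine synthesis and secretory granules that both organs express gave 9 lower and 1 higher of 19 (median -0.37). Over all genes 15.4% were lower and 13.9% higher. In SHR adrenal glands 10 fell and 2 rose, against 24.8% and 17.8% of all genes. In SHR ventricles 4 fell and 3 rose, against 12.6% and 9.31%. Besides Penk, the lower members included Maoa, which encodes the breakdown enzyme monoamine oxidase A. Maoa rose in the ventricle by 1.11, and its adrenal difference of -0.38 did not pass (tissue difference -1.48). The synthesis genes Ddc and Dbh, which make dopamine and noradrenaline, fell in the adrenal gland (strain differences -1.27 and -1.36), with tissue differences of -1.21 and -1.05. Spr, which makes the cofactor tetrahydrobiopterin, was the higher member. It was at 12.5, 11.8, 11.4 and 13.1 FPKM in SHR adrenal glands, against 7.89, 8.23, 8.42 and 8.70 FPKM in WKY adrenal glands. Its ventricular values were 12.4, 16.03, 13.01 and 14.2 FPKM in SHR ventricles, against 20.1, 21.3, 19.4 and 19.8 FPKM in WKY ventricles, with a tissue difference of 1.01 (SE 0.10, adjusted p = 3.34e-06). Pam, the peptide amidating enzyme, rose in the ventricle alone (tissue difference -0.43, adjusted p = 0.00244).

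Receptors and hormones of blood pressure control gave 6 lower members, among them Hsd11b1, Ednrb, Agtr1a, Nr3c1 and Grk5, and 1 higher, Adra1d, of 22 (median -0.23). Over all genes 15.4% were lower and 13.9% higher. The share of the list called either way was near the 29.3% of all genes. Ednrb, the endothelin B receptor, was at 4.30, 6.01, 6.08 and 6.01 FPKM in SHR adrenal glands, against 8.05, 6.87, 7.20 and 8.98 FPKM in WKY adrenal glands. In ventricles it was at 21.1, 20.01, 23.8 and 27.98 FPKM in SHR ventricles, against 14.3, 14.7, 15.6 and 10.9 FPKM in WKY ventricles, in the opposite order, and the tissue difference was -1.12 (SE 0.18, adjusted p = 0.000257). Agtr1a, the type 1 angiotensin receptor through which aldosterone output is driven, fell in the adrenal gland (strain difference -1.13), with a ventricular difference of -0.22 and a tissue difference of -0.91 (SE 0.16, adjusted p = 0.000509). The glucocorticoid receptor gene Nr3c1 fell in the adrenal gland (strain difference -0.60) and differed by -0.02 in the ventricle.

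Of 20 tested clock genes, 4 had a called tissue difference, a share below the 29.3% of all genes. Of the 4, 2 were higher (Nfil3 among them) and 2 lower (Npas2 and Rora), with a list median of 0.10. Rora lost its call without adrenal WKY replicate 4, adrenal SHR replicate 3, ventricular WKY replicate 2 or 4 or ventricular SHR replicate 2 (adjusted p up to 0.0605). Npas2, a partner of the clock's activator, was at 4.63, 2.67, 3.37 and 3.30 FPKM in SHR adrenal glands, against 23.97, 10.3, 22.2 and 28.6 FPKM in WKY adrenal glands. It was at 2.30, 1.89, 2.49 and 2.03 FPKM in SHR ventricles, against 5.23, 3.65, 4.46 and 5.41 FPKM in WKY ventricles, lower in SHR in both organs, and the tissue difference was -1.41 (SE 0.32, adjusted p = 0.00411). Nfil3, a repressor of clock output genes, rose by 2.03 in the adrenal gland, with a ventricular difference of -0.05. Cell cycle genes gave 6 higher and 2 lower of 16 (median 0.12), against 13.9% and 15.4% of all genes. The higher ones included the replication helicase genes Mcm2, Mcm3, Mcm4 and Mcm6 (0.54 to 0.75 for Mcm3, Mcm6 and Mcm2). Mcm2 averaged 8.74 ± 0.67 FPKM in SHR adrenal glands and 8.59 ± 1.11 FPKM in WKY adrenal glands and 2.29 ± 0.47 FPKM in SHR ventricles and 4.39 ± 0.35 FPKM in WKY ventricles. Schwann cell and glial markers gave 2 higher and 1 lower of 8 (median 0.01), against 13.9% and 15.4% of all genes. S100b was at 32.8, 25.8, 43.5 and 31.9 FPKM in SHR adrenal glands, against 19.5, 22.8, 16.7 and 18.4 FPKM in WKY adrenal glands. Its ventricular values were 0.33, 0.46, 0.76 and 0.26 FPKM in SHR ventricles, against 2.01, 1.18, 1.71 and 3.68 FPKM in WKY ventricles, with a tissue difference of 1.81 (SE 0.28, adjusted p = 0.00022). S100b reached the minimum in the ventricle only through WKY, so its ventricular direction was fixed by the filter. Cnp and Pmp22, both of myelin, had tissue differences of 0.49 and -0.92. Of 18 tested genes named in earlier SHR genetics, 4 had a lower tissue difference and 4 a higher one, against 15.4% and 13.9% of all genes. Cd36, Hmox1 and Gstm2 were among the lower ones, and Ephx2, Endog, Stim1 and Add3 were the higher ones. That list has no common direction, and without any 1 of adrenal WKY replicate 4, adrenal SHR replicates 1 and 4, ventricular WKY replicates 1 and 4 and ventricular SHR replicates 1, 3 and 4 it had 1 or 2 higher members.

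Some strain differences were shared by the organs. A total of 715 genes were called in both with the same sign and no call of the tissue difference. Ifit1, an interferon-induced protein that binds foreign RNA, was at 7.43, 24.1, 10.4 and 6.75 FPKM in SHR adrenal glands, against 0.03, 0, 0.03 and 0.03 FPKM in WKY adrenal glands. It was at 7.81, 32.5, 10.4 and 6.67 FPKM in SHR ventricles, against 0.08, 0.08, 0.04 and 0 FPKM in WKY ventricles. WKY was at or near 0 in both organs, and the tissue difference was -0.08 (95% interval -1.32 to 1.16, adjusted p = 0.934). Other genes differed in the same direction but by unequal amounts. Setd4, a lysine methyltransferase, was at 20.96, 21.1, 22 and 23.1 FPKM in SHR adrenal glands, against 0, 0, 0.04 and 0 FPKM in WKY adrenal glands. It was at 5.17, 5.52, 4.83 and 5.35 FPKM in SHR ventricles, against 0.04, 0, 0.04 and 0 FPKM in WKY ventricles, with a tissue difference of 1.89 (SE 0.10, adjusted p = 2.76e-09). Ndufa10l1, a copy of a complex I subunit gene, averaged 30.4 ± 2.16 FPKM in SHR adrenal glands and 0.41 ± 0.12 FPKM in WKY adrenal glands and 84.5 ± 3.90 FPKM in SHR ventricles and 0.81 ± 0.40 FPKM in WKY ventricles, with a tissue difference of -1.10 (SE 0.17, adjusted p = 0.000169). Hist1h2bk, a histone gene, was listed at 0 in all SHR libraries and averaged 12.0 ± 2.22 FPKM in WKY adrenal glands and 4.83 ± 0.43 FPKM in WKY ventricles. Ndufa10l1 (in the adrenal gland) and Ifit1, Setd4 and Hist1h2bk (in both organs) reached the minimum only through the strain in which they were high. Differences of this kind on the log scale also follow the level of the gene in each organ, since one strain is at or near 0. Levels of Ndufa10l1 and Hist1h2bk are uncertain because near-identical copies can share their reads.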

How the data were processed

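The deposited table gives, per the file headers, FPKM per gene and library (fragments scaled by transcript length and by the size of the library) and the authors' own log2 ratios and q-values of SHR over WKY per tissue, which are quoted as counts only. Trizol was used for extraction, and KAPA RNA HyperPrep libraries made from 200 ng of RNA were sequenced on a BGISEQ-500, per the labels' protocols. Per the submitters' processing notes, which give no role or order, the tools were RSEM 1.3.1, Bowtie2 and DESeq2 1.4.5 and the build Rnor_6.0. Annotation, strand and read numbers: not given in the sources used here. Of 22864 genes, 2358 were blank in every library, and 27 symbols turned into dates were restored by gene identifier from RefSeq (GRCr8), an assembly used otherwise only for names, neighbours and promoter windows. Samples were grouped by their titles.

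A limma 3.58.1 (R 4.3.3) means model of the 4 groups on log2(FPKM + 1), with trended and robust empirical Bayes moderation, gave the 2 strain differences and the tissue difference; p-values are 2-sided, Benjamini-Hochberg adjusted over 11395 genes, with a threshold of 0.05, and SE is limma's. The fit was tested on simulated data with known changes. Alternatives were other pseudocounts, filters, scalings, a fit of all 24 libraries, replicate blocks and each library left out. Fold changes are log2 differences on this scale, and FPKM carries no read depth, so no count test was possible. The genes compared, the 29 lists and the naming rule were chosen with earlier results of these data known. Loci without a gene symbol (LOC and RGD numbers) were counted but not named. Named are the 6 most positive and 6 most negative tissue differences past the threshold, with a mean of 5 FPKM or more in a strain of each organ and no overlap of the strains in the organ with the larger strain difference, up to 3 called members of each list by adjusted p, the 6 opposite-sign genes and the 4 shared genes with the largest smaller difference; further members were picked with their values in view. Some genes are not reported here.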

Additional observations from a re-analysis of the deposited data

Results flagged for a closer look

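The strain difference itself was tested between the organs, and it differed in 3340 genes, of which 447 had calls of opposite sign in the adrenal gland and the left ventricle. The tissue difference is the comparison of the report, so the genes repeated here are those of its naming rules for the largest values and for opposite signs. The positive ones were Ddit4 (4.45), Rgs2 (3.66), Stard4 (3.36), Junb (3.22), Nr4a1 (3.06), Sik1 (3.01) and Adra1d (2.16). The negative ones were Me1 (-4.30), Akr1c14 (-3.77), Penk (-3.65), Cd36 (-3.63), Postn (-3.49), Hamp (-3.09), Myom2 (-2.91), C6 (-2.46), Wfdc1 (-2.21) and C1qb (-2.02).

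In the 93 named genes, each group of 4 libraries was examined for a library far from the other 3, by the gap to its neighbour as a share of the range. Of 372 such groups 23 were picked out, and chance picks about 1 in 20. In SHR adrenal glands these were Txnrd2 in replicate 1 (50.9 FPKM), Ednrb in replicate 1 (4.30), Rplp0 in replicate 4 (500.35), Postn in replicate 4 (1.34) and Tbx20 in replicate 4 (4.06). WKY adrenal glands gave Ndufb8 (175 FPKM) and Adra1d (6.58) in replicate 1, Ctss (38.7) and Ifit1 (0) in replicate 2, and Adar (29.5), Ephx2 (0.75) and Setd4 (0.04) in replicate 3. Among SHR ventricles, replicate 2 stood apart for Parp14 (16.5 FPKM) and Ifit1 (32.5), replicate 3 for Mrps9 (58.2), Cspg4 (13.6) and Pdgfrb (36.4), and replicate 4 for Psmb6 (126). WKY ventricles gave Sik1 (6.04 FPKM), Tap2 (29.9) and Col18a1 (8.85) in replicate 1, Ndufb8 (976) in replicate 3 and Lipa (34.3) in replicate 4. The low adrenal WKY values of Ifit1 and Setd4 lie at or near 0, where 2 decimals decide the gap.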

How the results depend on the processing

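The counts of tissue and strain differences stayed within 1.5 times their value under every alternative run, and no called tissue difference changed sign. With 1 library left out, the tissue difference was called in 2882 to 3389 genes (1340 to 1608 higher, 1519 to 1802 lower), the adrenal strain difference in 4179 to 4925, the ventricular one in 1929 to 2744 and opposite signs in 332 to 481. Without the filter on low values 4494 of 18199 genes were called (24.7%), at a minimum FPKM of 5, 2374 of 7720 (30.8%), and in a fit of all 24 libraries 3963 (34.8%). The share of higher calls was 47.4%, against 49.3% after quantile normalization and 45.1% after scaling by the median of ratios. Ifit1, not called, turned positive with a pseudocount of 0.1 (0.14), without SHR replicate 2 in both organs (0.0198) and in 3 of the refits without 1 library (range -0.45 to 0.39). Mt2A, Lpl and Cyp21a1 lost their calls in the fit of all 24 libraries (adjusted p = 0.175, 0.0595 and 0.0537), Cyp21a1 and Psmb6 without the trend (0.0509 and 0.0504) and with the strain by number block (0.0594 and 0.0577), Star with a pseudocount of 0.5 (0.0537), and Hba-a1 and Ndufa10l1 with a pseudocount of 0.1 (adjusted p = 0.412 and 0.138); Star, Rora and Psmd7 lost theirs after quantile normalization (adjusted p = 0.0754, 0.0571 and 0.137), and Star and Rora also with a pseudocount of 0.1 (0.0861 and 0.0660). The cause was not tested. At a minimum FPKM of 5 fewer members were tested, and lower matrix genes numbered 9. Same-numbered libraries of the organs deviated together with correlations of -0.10 to 0.24, the highest for SHR replicate 2; not every pair passed 0.1 and not every library correlated best with its own number, and the labels tie no numbers together, so libraries were treated as unpaired. With a replicate block of strain by number 3139 genes were called (12 interferon-stimulated genes higher and 3 lower), and with a replicate block of the number 3306. The FPKM values carry no depth, so weakly expressed genes could not be given a counting error.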

Other observations

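Among the loci that the deposited table gives without a gene symbol, LOC102556347 had the largest tissue difference of all genes tested; it was chosen after its values were seen. Its gene identifier belongs in GRCr8 to Cbr1l2, on chromosome 11 between Cbr1l1 and Cbr1l3, a group of copies related to the carbonyl reductase gene Cbr1. LOC102556347 was at 399.7, 367, 401 and 424 FPKM in SHR adrenal glands, against 0, 0, 0 and 0 FPKM in WKY adrenal glands. The ventricles had 9.02, 4.45, 8.43 and 7.24 FPKM in SHR ventricles, against 0, 0, 0 and 0 FPKM in WKY ventricles. SHR carried it in all 8 libraries and WKY was listed at 0 in all 8, with a tissue difference of 5.63 (SE 0.19, adjusted p = 5.55e-12). The locus thus reached the minimum in both organs only through SHR, so its direction in each organ was fixed by the filter. With WKY at 0, the tissue difference follows the SHR level in each organ. Reads can be shared or lost between near-identical copies and between alleles of the 2 strains, so both the level and the absence in WKY are uncertain.

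The genes with a strain call in neither organ but a called tissue difference numbered 196. Their median absolute strain difference was 0.180 in the adrenal gland and 0.203 in the ventricle, 111 had a higher and 85 a lower tissue difference, and the adrenal difference was the larger in 71.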
